A study of Danio rerio with 12 samples.

Results

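The regions described here are 517 open-chromatin regions of zebrafish embryos whose mean accessibility was lower with TDCIPP and higher with decitabine (DAC) than in the DMSO controls of the same experiment. They were chosen from 2 tables of group means, 1 per compound, by pairing regions that share at least 1 base, largest overlap first. Of 24956 pairs, 11930 reached the level minimum, a log2 mean normalized read count of 6.5 for TDCIPP and of 4.5 for DAC. The 517 members, 4.33% of these 11930, had a TDCIPP minus DMSO difference of -0.3 or less and a DAC minus DMSO difference of 0.3 or more on the log2 scale. The folds and levels that made this choice are given below as a description only.

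Accessibility was read by ATAC-seq, in which the transposase Tn5 inserts adapters where DNA is not wrapped tightly in nucleosomes, so that open promoters and enhancers collect the most reads. Decitabine is a cytidine analog that is built into new DNA and traps DNA methyltransferases, and TDCIPP, tris(1,3-dichloro-2-propyl) phosphate, is an organophosphate flame retardant. The series title concerns H2A.Z, a histone variant that in early zebrafish embryos sits on nucleosomes over unmethylated DNA, and the silencing of repetitive elements. The regions here are those whose group means differ from DMSO in opposite directions with the 2 compounds. Whether the compounds act on open chromatin alike was not tested.

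All embryos were wild type AB/Tuebingen and were taken whole at 6 hours post fertilization, when gastrulation begins. Freshly fertilized eggs, around 50 to a well in 5 mL, were exposed to 3.12 µM TDCIPP, to 100 µM DAC or to 0.1% DMSO, and around 100000 cells went into a nuclei preparation. The 12 libraries make 4 groups of 3: TDCIPP, the DMSO controls of that experiment, DAC, and a second set of DMSO controls. No control library serves both compounds. A library therefore mixes the cell types of many embryos, and fewer cells with a region open cannot be told apart from less opening per cell. The header of the DAC table calls its treated group 5AzaC, while the labels name DAC, which is the name used here. Values of single libraries were not analysed here, so each value below is a mean of 3 libraries as the authors' deposited tables give it, without SD, and no difference between the members and other pairs was tested. Intervals around shares are exact 95% Clopper-Pearson intervals, intervals around medians are 95% order-statistic intervals, and both cover counting error only, since neighbouring regions are not independent.

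With TDCIPP the members were lower by a modest amount, and 169 of the 517 passed the threshold of 0.05 on the authors' DiffBind adjusted p. The median member had, by the authors' deposited table, 246 normalized reads in TDCIPP libraries and 324 in DMSO libraries, against 212 and 214 for the other 11413 pairs. The difference ranged from -0.98 to -0.30 with a median of -0.37 (quartiles -0.44 and -0.32), and 75 members reached -0.5. Summed over the 517, reads made up 3.62% of all reads in the TDCIPP table for TDCIPP libraries and 4.70% for DMSO libraries. Passing the authors' adjusted p in the lower direction was seen at 2.13% of all 11930 pairs and at 0.916% of all 35040 regions of that table. An unadjusted p under 0.05 was given for 452 members (87.4%), and in the lower direction for 9.3% of all pairs. Because the same contrast chose the members, nothing is read from their shares of 32.7% and 87.4%. The 169 called members had a median level of 9.11 and the 348 others one of 7.79 (log2 reads, authors' deposited table).

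With DAC, no member was called. In the authors' deposited DAC table the adjusted p is 1 at every region, so that 0% of 45019 regions were called, and the higher values with decitabine are differences of group means that passed no test. The median member had 65.8 normalized reads in DAC libraries and 45.3 in DMSO libraries, against 49.9 and 40.8 for the other pairs. The difference ranged from 0.30 to 1.31 with a median of 0.51 (quartiles 0.39 and 0.65) in the authors' deposited table, and 11 members reached 1. An unadjusted p under 0.05 was found at 9 members (1.74%), while 0.612% of all 11930 pairs were higher at that p, and the smallest was 0.00948. This contrast also chose the members, so nothing is read from the share of 1.74%. Read numbers were low, since the DAC table holds a median of 18.6 normalized reads per region in DAC libraries and 17.6 in DMSO libraries, against 84.4 and 83.3 for TDCIPP and its DMSO controls.

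**Figure D1:**
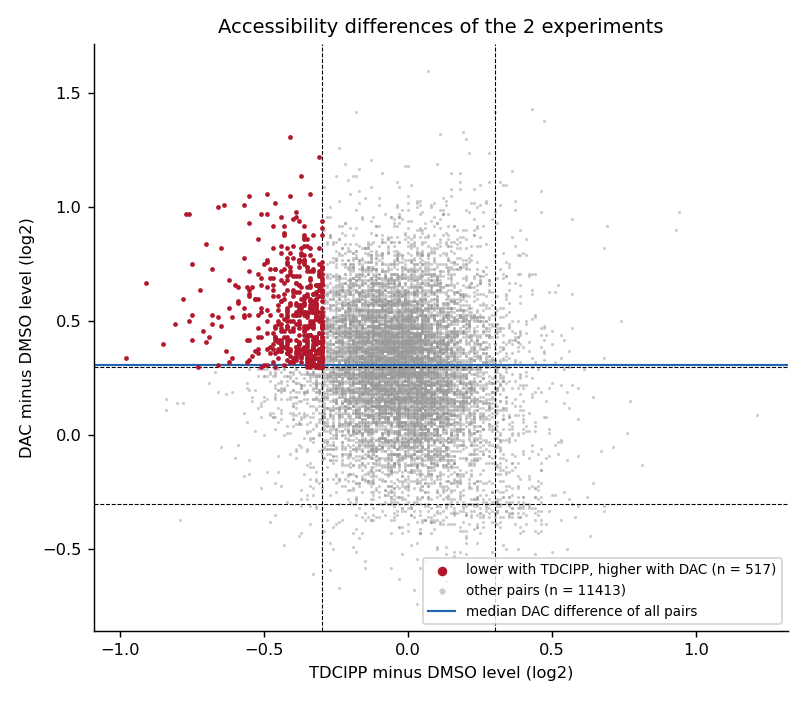
Each point is a pair of regions, placed by its TDCIPP minus DMSO level (x, log2) and its DAC minus DMSO level (y, log2), both from group means, with the 517 members in red and the other 11413 pairs in grey. Dashed lines mark -0.3 and 0.3, and the blue line, the median DAC difference of all pairs at 0.31, lies almost on the DAC limit.

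The DAC limit is not far from the ordinary pair. Over all 11930 pairs the median DAC difference was 0.31 and the median TDCIPP difference -0.03 in the authors' deposited tables, so 51.8% of pairs met the DAC limit and 7.01% met the TDCIPP limit. Of the 836 pairs that met the TDCIPP limit, 517 (61.8%) also met the DAC limit, and 13 (1.56%) lay at -0.3 or below with DAC. Of the 10572 pairs between the TDCIPP limits, 51.8% met the DAC limit. The DAC differences thus have to be read against an upward shift of most pairs, with a median of 0.31. The shift was not uniform, with a median of 0.23 in the lowest of 5 classes of TDCIPP level and of 0.38 in the highest. Since the limit of 0.3 lies next to the median of all pairs, a member lies above the median pair almost by the rule itself, and nothing is read from it. With both tables centred on their medians, which tightens both limits, 131 of the 517 met them.

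**Figure D2:**
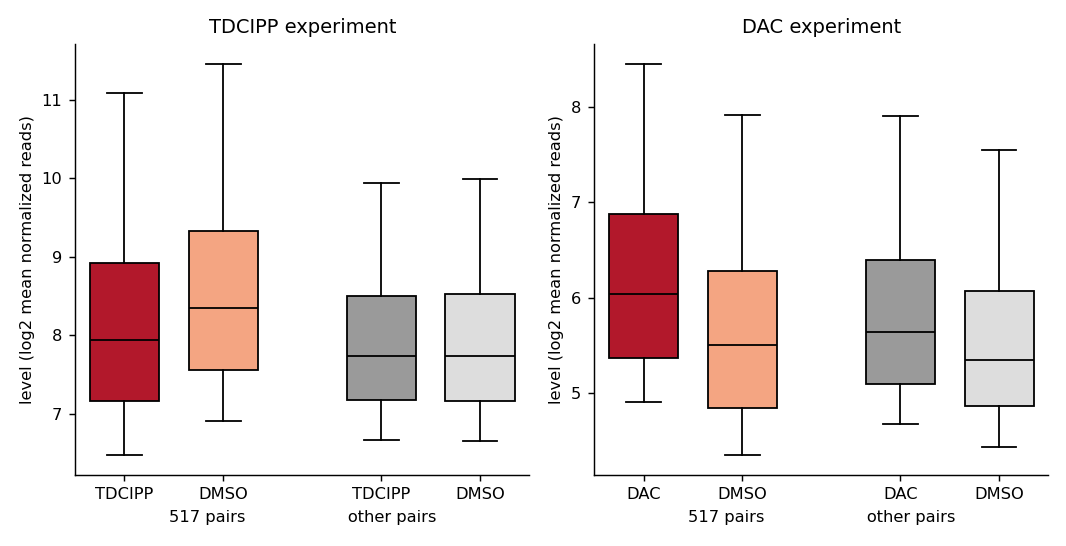
Boxes give the median and quartiles and whiskers the 5th and 95th percentiles of the level (log2 mean normalized reads) of each treated group and its DMSO controls, for the 517 members (red, pale red) and for the other pairs (grey, pale grey). The members' TDCIPP box lies below their DMSO box and their DAC box above it, and the other pairs also have a DAC box above their DMSO box.

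The rule also shapes the control levels, since a low difference favours high controls and a high difference low ones, and they are given as a description. Per kilobase of region, the members had a median of 145 normalized reads in TDCIPP libraries and 192 in DMSO libraries of the TDCIPP experiment, against 154 and 155 for other pairs. In the DAC experiment they had 49.2 per kilobase in DAC libraries and 33.7 in DMSO libraries, against 39.7 and 32.3 for other pairs. The level in DMSO of the TDCIPP experiment exceeded that in DMSO of the DAC experiment by a median of 2.84 at members and 2.40 at other pairs on the log2 scale. Between the treated groups that gap was 1.92 at members and 2.08 at other pairs. The tables were normalized separately, and nothing is read from these gaps.

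Regions with the widest separation between the compounds show what such a pair looks like. On the unplaced contig KN149795v1 of GRCz11, the build of all coordinates here, the region at 20522 to 21695 had 329 normalized reads in TDCIPP libraries and 560 in DMSO libraries, and 47.8 in DAC libraries and 24.4 in DMSO libraries. Its TDCIPP adjusted p was 6.67e-07 in the authors' deposited DiffBind table, and its DAC p, unadjusted, was 0.0801. On chromosome 19, the region at 47562251 to 47563513 had 78.8 reads with TDCIPP and 133 with DMSO, and 39.95 with DAC and 20.4 with DMSO. A second one on that chromosome, at 42342848 to 42344476, had 159 with TDCIPP and 251 with DMSO, and 64.45 with DAC and 32.2 with DMSO. In each of these 3 the TDCIPP mean was well below its DMSO mean while the DAC mean was close to double its own.

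The largest DAC difference of any member, 1.31, belonged to a region on the alternate scaffold KZ114937v1 of chromosome 14 at 165844 to 168283. It had 79.3 reads in DAC libraries and 32.0 in DMSO libraries, and 345 in TDCIPP libraries and 458 in DMSO libraries (TDCIPP adjusted p = 0.0172 and DAC unadjusted p = 0.0207 in the authors' deposited DiffBind tables). Chromosome 25 at 27429002 to 27430711 had a smaller DAC difference of 1.01, with 39.1 reads with DAC and 19.4 with DMSO, and 131 with TDCIPP and 194 with DMSO. The TDCIPP difference helped rank these 8 widest separations, so nothing is read from how many were called. Of all members 32.7% were called lower with TDCIPP, and of all pairs 2.13%. Among these 8, 6 passed the authors' TDCIPP adjusted p. The exceptions were the unplaced contig KN149723v1 at 80 to 2071 (0.178) and chromosome 20 at 29489681 to 29491654 (0.0585), by the authors' deposited DiffBind table. The contig region had 879 reads with TDCIPP and 1370 with DMSO, and 861 with DAC and 428 with DMSO. The remaining member of this set lay on chromosome 10 at 29854217 to 29855758, with 261 reads with TDCIPP and 491 with DMSO, and 101 with DAC and 63.6 with DMSO.

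The 6 members with the smallest TDCIPP p had DAC differences anywhere from 0.34 to 0.97. The member with the smallest TDCIPP p, on chromosome 10 at 44994572 to 44997297, had 437 reads in TDCIPP libraries and 861 in DMSO libraries, but 132 in DAC libraries and 104 in DMSO libraries, a difference of 0.34 that is close to the median of all pairs. Chromosome 7 at 25046368 to 25049608 fell with TDCIPP (419 reads, against 680 with DMSO, adjusted p = 6.03e-08 in the authors' deposited DiffBind table) and had 104 reads with DAC and 58.1 with DMSO. Chromosome 3 at 29864920 to 29871437 had 1226 with TDCIPP and 2077 with DMSO, and 138 with DAC and 97.7 with DMSO. Chromosome 8 at 2492155 to 2494086 had 282 with TDCIPP and 474 with DMSO, and 63.6 with DAC and 44.0 with DMSO. Across the 517 members the differences had Pearson r = -0.133 and Spearman rho = -0.158, a description over regions that share libraries and were cut off at both limits.

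The smallest DAC p among members, 0.00948 unadjusted in the authors' deposited DiffBind table, was found on the alternate scaffold KZ115328v1 of chromosome 10 at 31114 to 31826, with 46.5 reads in DAC libraries and 19.97 in DMSO libraries. It had 150 reads with TDCIPP and 186 with DMSO, just inside the TDCIPP limit (adjusted p = 0.438 in the authors' deposited DiffBind table for TDCIPP). Chromosome 23 at 41616543 to 41618665 had 65.8 reads with DAC and 33.4 with DMSO (unadjusted p = 0.0324), and 113 with TDCIPP and 148 with DMSO (adjusted p = 0.294), all from the authors' deposited DiffBind tables. Neither passed in either table.

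Many members lay close to a limit, mostly that of TDCIPP. Within 0.02 of it lay 131 members (25.3%), and 35 (6.77%) lay within 0.02 of the DAC limit, while 147 pairs missed membership by 0.02 or less. Just inside the DAC limit, at 0.30, were regions starting at 31924230 on chromosome 16 (31926268 end, TDCIPP difference -0.73) and at 11755887 on chromosome 22 (11760201 end, -0.51). The same held for those starting at 27405546 on chromosome 20 (27407835 end, -0.46) and at 48635094 on chromosome 4 (48637706 end, -0.35). Just outside it, at 0.29, were chromosome 7 at 73857267 to 73859486 (-0.50) and at 6465360 to 6468780 (-0.39), chromosome 5 at 30533888 to 30536682 (-0.45) and the scaffold KZ114955v1 at 258066 to 262609 (-0.46). At the stricter limit of 0.5 in both tables, 48 members were left.

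Width was not used by the rule, and members had a larger median width than other pairs in each of 5 classes of TDCIPP level. Their median width in the TDCIPP table was 1716 bp (95% interval 1653 to 1800, quartiles 1265 and 2373), against 1469 bp (1454 to 1483) for other pairs. In the DAC table it was 1476 bp, against 1323 bp. Members had a higher level as well, with a median of 8.16 against 7.73 for TDCIPP and 5.79 against 5.5 in the DAC table (log2 reads). Since a wide region collects more reads, widths were compared within 5 classes of TDCIPP level. From the lowest to the highest class, members had a median width of 1328, 1508, 1526, 1799 and 2306 bp, against 1295, 1337, 1436, 1557 and 1930 bp for other pairs. The share of pairs that were members ran 3.06%, 3.10%, 3.77%, 4.32% and 7.42% over the same classes, so it was highest at level 8.73 and above. The share that met the TDCIPP limit was 6.54%, 5.24%, 6.24%, 6.41% and 10.6%, and that meeting the DAC limit climbed steadily, at 40.9%, 46.9%, 50.2%, 57.2% and 63.6%.

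By width, members made up 3.16% of pairs up to 1000 bp (95% interval 2.49 to 3.95) and 3.13% of those up to 1500 bp. They made up 4.68% of pairs of 1500 to 2000 bp, 6.17% at 2000 to 3000 bp (5.18 to 7.29) and 7.55% at 3000 to 4000 bp (5.5 to 10.1). Above 4000 bp the share was 6.25% (3.91 to 9.40), on 21 members of 336 pairs. The regions matched well between the tables, with a TDCIPP width that was a median of 1.07 times the DAC width at members and 1.03 times at other pairs. In 288 members the narrower region lay wholly within the wider, and no member shared less than 63.6% of the narrower region.

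Members were found on all 25 assembled chromosomes, at unequal rates. They made up 7.36% of pairs on chromosome 23 (27 members, 95% interval 4.90 to 10.5), 6.5% on chromosome 19 (29 members) and on chromosome 5 (36 members), and 6.14% on chromosome 25 (18 members). The lowest shares were 1.09% on chromosome 18 (3 members, 0.226 to 3.17), 2.12% on chromosome 24 (6 members), 2.14% on chromosome 13 (9 members) and 2.25% on chromosome 4 (20 members of 887 pairs, 1.38 to 3.46). The intervals of chromosomes 23, 19 and 5 lie above the 4.33% of all pairs, and those of chromosomes 18, 13 and 4 below it. On chromosome 5 a single place of 166 kb held 11 of the 36 members, and without it the share was 4.6% (25 members of 543 pairs, 3 to 6.72), an interval that takes in 4.33%. Chromosome 4 met the DAC limit at 59.6% of its pairs and the TDCIPP limit at 4.40%, while chromosome 23 met them at 53.7% and 12.3%. Chromosome ends were little different, with 11.5% of members and 9.78% of other pairs on assembled chromosomes within 1 Mb of the outermost region.

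**Figure D3:**
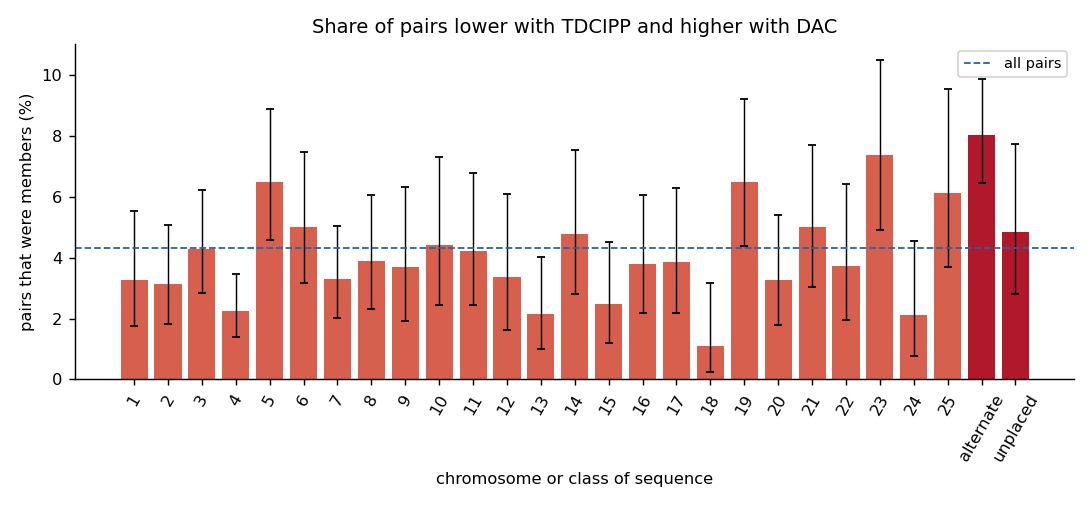
Bars give the share of pairs (%) that were lower with TDCIPP and higher with DAC on each chromosome, on alternate scaffolds and on unplaced sequence, with 95% Clopper-Pearson intervals, and the dashed line marks 4.33% for all pairs. Chromosome 23 and the alternate scaffolds stand highest, at 7.36% and 8.04%, and chromosome 18 lowest, at 1.09%.

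Alternate scaffolds, which carry other haplotypes of sequence that is also placed on a chromosome, held 83 members, or 16.1% of the 517 (95% interval 13.0 to 19.5), against 8.32% of other pairs (7.81 to 8.84). They were spread over 59 scaffolds. Of the 1032 pairs on such scaffolds 8.04% were members, 10.2% met the TDCIPP limit and 66.0% met the DAC limit. Without 2 dense places on scaffolds of chromosome 17, 6.44% were members (5.00 to 8.13). Scaffolds of chromosome 17 held 18 members of 50 pairs, all on 2 scaffolds, and those of chromosome 10 held 8 of 51, while those of chromosomes 1, 4, 12, 16, 22 and 25 held none of their 53, 31, 32, 25, 28 and 21 pairs. With both tables centred on their medians, 29.0% of the remaining 131 members lay on alternate scaffolds. A read can match a scaffold and its placed counterpart, the sources used here do not say how such reads were treated, and their part in these values was not tested. Some scaffold members had nearly the levels of a member on the parent chromosome. Chromosome 19 at 40025952 had log2 levels of 8.92 with TDCIPP and 9.28 with DMSO, and 6.94 with DAC and 6.06 with DMSO. Its scaffold KZ115594v1 at 226224 had 8.90 and 9.26, and 6.93 and 6.10. Whether such members are 1 locus counted in both was not tested, so the 517 may not all be separate loci. Unplaced sequence held 16 members on 14 contigs, 3.09% of members and 2.76% of other pairs.

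Members lay near each other more often than other pairs lay near a member. Of the 517, 148 (28.6%, 95% interval 24.8 to 32.7) had another member within 50 kb, while 731 of 11413 other pairs (6.4%, 5.96 to 6.87) had a member that near. Within 10 kb the shares were 21.5% and 1.95%. Counting pairs of any kind, members included, a mean of 2.64 lay within 50 kb of a member, against 1.72 around other pairs. For members outside the 6 places that held 4 or more members, that mean was 2.01, so part of the gap is the members' own grouping. Of the neighbouring pairs counted around members, 28.5% were members, against 4.97% around other pairs, and around members outside the 6 places that held 4 or more members 13.6% were. The 517 members formed 424 places, of which 369 held a single member, 41 held 2 and 8 held 3. The 6 places with 4 or more held 42 members, and without them 22.3% (18.6 to 26.3) of the remaining 475 had another member within 50 kb.

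Regions near members leaned the same way, and their own differences had no part in the choice. Levels did help decide which regions are in this set, and the regions were read in the same libraries as the members. Outside the 11930 pairs, for want of a free partner or of level, were 23110 regions of the TDCIPP table and 33089 of the DAC table. Some of these, as on chromosome 5, overlap a member's region of the other experiment that was already paired. Such regions are not apart from the members, and how many there are was not counted. Of the 84 such TDCIPP regions within 5 kb of a member, 66 (78.6%, 95% interval 68.3 to 86.8) were below 0, with a median of -0.22 (-0.31 to -0.17) in the authors' deposited table. At 5 to 10 kb the median was -0.13 and 64.7% were below 0, and at 10 to 50 kb they were -0.07 and 58.6%. At 50 to 200 kb the median was 0.01, and beyond 200 kb it was 0.05 with 42.2% below 0. Of the 84 nearest regions, 12 passed the authors' adjusted p in the lower direction, against 67 (0.29%) of all 23110. Those that passed include the overlapping ones on chromosome 5. The 84 also had a higher median level, 6.48 against 5.88, and at level 5.5 to 6.5 within 5 kb 0 of 31 regions passed.

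Outside the pairs, the DAC table gave the opposite slope. Of 110 regions outside the pairs and within 5 kb of a member, 90 (81.8%, 95% interval 73.3 to 88.5) were above 0, with a median of 0.37 (0.24 to 0.48) in the authors' deposited table. The median was 0.13 at 5 to 10 kb, 0.10 at 10 to 50 kb, 0.04 at 50 to 200 kb and -0.01 beyond 200 kb, where 48.0% were above 0. Among the other pairs, whose values the rule did use, DAC medians over the same distances were 0.32, 0.37, 0.33, 0.32 and 0.28, with little slope. TDCIPP medians of the other pairs were -0.20, -0.17, -0.09, -0.04 and -0.01. Near regions had somewhat more reads, with a median level of 6.48 within 5 kb and 5.88 beyond 200 kb in the TDCIPP table, and 4.32 and 3.83 in the DAC table. At matched level (3.5 to 4.5) the DAC median within 5 kb was 0.34 (0.17 to 0.49), against 0.02 beyond 200 kb. On sequences without a member, where no gap exists, the DAC median at that level was 0.12 (2094 regions, 63.5% above 0). For TDCIPP at level 5.5 to 6.5 the median within 5 kb was -0.14 on 31 regions, with an interval of -0.28 to 0.03 that takes in 0. It was -0.14 (-0.19 to -0.10) on 67 regions at 5 to 10 kb, 0.04 beyond 200 kb and 0.02 on sequences without a member. Without the 6 places of 4 or more members, the medians within 5 kb were -0.21 for TDCIPP and 0.35 for DAC.

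**Figure D4:**
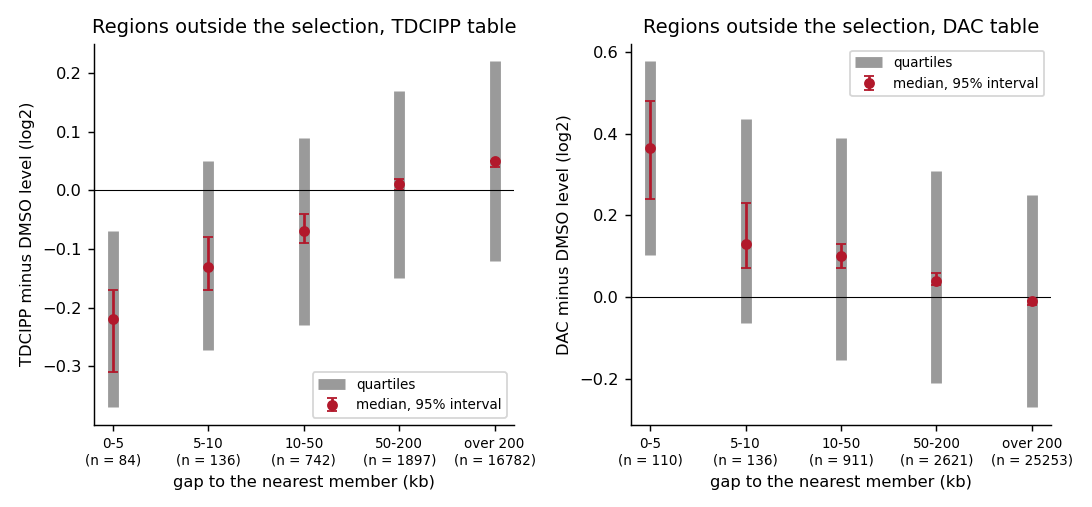
Points are median differences (log2) with 95% order-statistic intervals, and grey bars quartiles, of regions outside the pairs by their gap to the nearest of the 517 members (kb), TDCIPP minus DMSO at left and DAC minus DMSO at right. Medians run -0.22, -0.13, -0.07, 0.01 and 0.05 for TDCIPP and 0.37, 0.13, 0.10, 0.04 and -0.01 for DAC from near to far. Regions on sequences without a member are left out, with medians of 0.03 for TDCIPP and 0.07 for DAC.

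The chromosome 5 place, at 43119823 to 43285793, held 11 members in 166 kb, among them the widest member and the most read member of the set. Outside the pairs lay 3 of its TDCIPP regions and 1 of its DAC regions. Their own differences were not used by the rule, but the 3 TDCIPP regions lie inside DAC regions of members and are not apart from them. They had differences of -0.46 to -0.35 with TDCIPP, and the DAC region had 1.22 with DAC, in the authors' deposited tables. That DAC region had few reads, 19.3 with DAC and 8.28 with DMSO (unadjusted p = 0.0623 in the authors' deposited DiffBind table). Members of the place had a median of 1409 reads with TDCIPP and 1978 with DMSO, and 419 with DAC and 231 with DMSO. TDCIPP differences ran only from -0.49 to -0.34, and DAC differences from 0.64 to 1.06, in the authors' deposited tables. Of the 11, 9 passed the TDCIPP adjusted p of the authors' DiffBind table, and the smallest unadjusted DAC p of a member was 0.0829. Because the same contrast chose the members, nothing is read from such counts here or in the other places. Over all members the share was 32.7%, and 2.13% of all pairs were called lower with TDCIPP. The widest member, 42380 bp at 43142560 to 43184939, had 2226 reads with TDCIPP and 2937 with DMSO, and 982 with DAC and 605 with DMSO. The most read one, at 43218239 to 43224954, had 12246 with TDCIPP and 16613 with DMSO, and 5008 with DAC and 2574 with DMSO. The signs of these members were set by the rule, while their reads and widths were not alike.

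The other 3 places on assembled chromosomes had smaller DAC differences. On chromosome 17 at 23329700 to 23380246, 5 of 10 pairs were members, all 5 passed with TDCIPP in the authors' deposited DiffBind table (highest adjusted p 0.00211), and their median was 1846 reads with TDCIPP and 2684 with DMSO, and 142 with DAC and 103 with DMSO. Chromosome 25 at 36314959 to 36367591 had 4 members of 9 pairs, with a median of 2993 reads with TDCIPP and 3845 with DMSO, and 244 with DAC and 195 with DMSO. Its other 5 pairs had DAC differences of 0.16 to 0.26, under the limit, and TDCIPP differences of -0.46 to -0.35 in the authors' deposited tables. Chromosome 7 at 6428733 to 6447039 had 4 members of 4 pairs, with a median of 3150 with TDCIPP and 4010 with DMSO, and 309 with DAC and 246 with DMSO. The most read member there, at 6443656 to 6447039, had 5634 with TDCIPP and 7697 with DMSO, and 560 with DAC and 443 with DMSO. In these 3 places the members' median DAC difference was 0.46, 0.37 and 0.34, against 0.31 for all pairs and 0.92 on chromosome 5. For all pairs at TDCIPP level 8.73 and above, where these members lie, the median was 0.38.

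The 2 scaffolds of chromosome 17 differed from each other. On KZ115525v1 at 350212 to 412166, 12 of 15 pairs were members, with a median of 761 reads with TDCIPP and 1082 with DMSO, and 96.7 with DAC and 55.9 with DMSO. The other 3 pairs had TDCIPP differences of -0.28 to -0.20 in the authors' deposited table, and 9 members passed the TDCIPP adjusted p of the authors' DiffBind table. The smallest unadjusted DAC p there was 0.0433. On KZ114955v1 at 232743 to 268220, 6 of 7 pairs were members, all 6 passed with TDCIPP (highest adjusted p 0.00752 in the authors' deposited DiffBind table), and the median was 3199 with TDCIPP and 4190 with DMSO, and 261 with DAC and 189 with DMSO. The median DAC difference was 0.70 on the first scaffold and 0.43 on the second, with TDCIPP medians of -0.42 and -0.41.

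**Figure D5:**
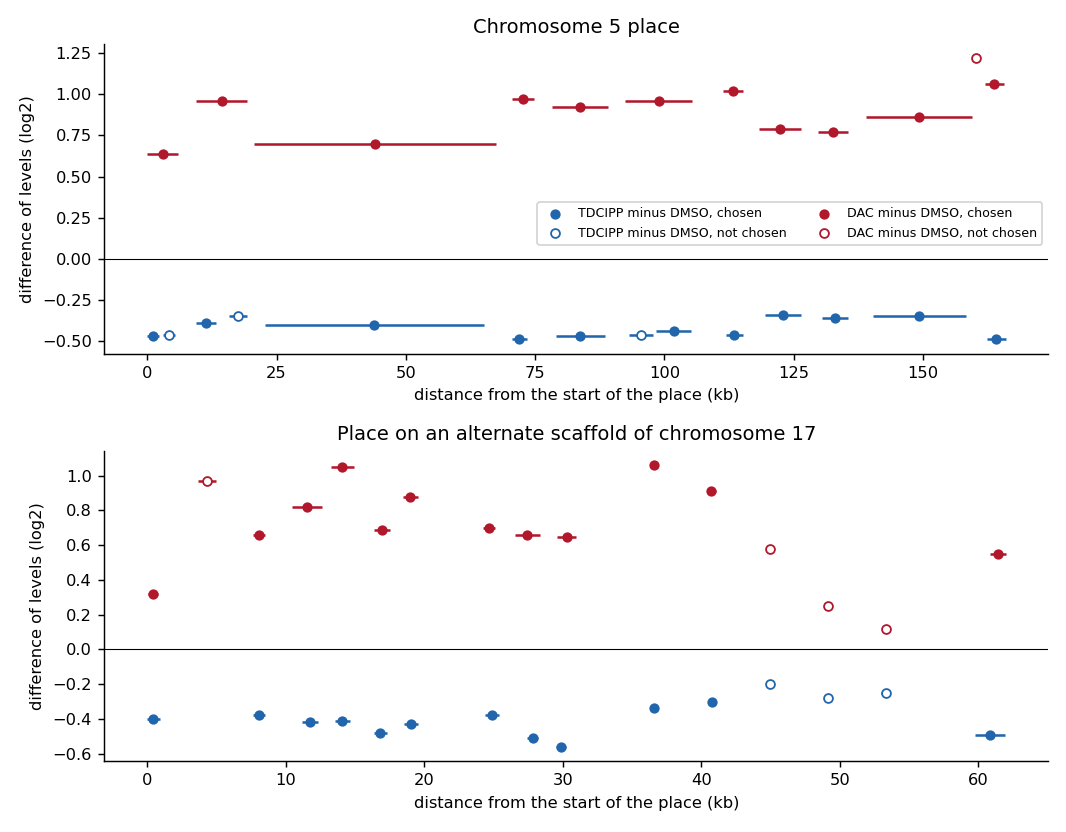
Differences of levels (log2) along the chromosome 5 place and the KZ115525v1 place of chromosome 17, by distance from the start of the place (kb), with bars for region width, TDCIPP minus DMSO in blue, DAC minus DMSO in red, members filled and other regions open. The signs of the filled points were set by the rule, and on chromosome 5 the blue points keep between -0.49 and -0.34.

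Pairs that met the limits in other combinations were fewer. The mirror set, higher with TDCIPP and lower with DAC, held 78 pairs (0.654% of all), 178 (1.49%) were higher with both compounds and 13 (0.109%) were lower with both. These counts have to be read against the DAC shift of most pairs. Of the 522 pairs at 0.3 or above with TDCIPP, 14.9% lay at -0.3 or below with DAC, against 1.94% of those between the TDCIPP limits. At 0.3 or above with DAC lay 34.1% of the 522, against 51.8% of those between. Mirror pairs had a median level of 9.62 in the DAC table, against 5.79 at members, with 691 reads in DAC libraries and 886 in DMSO libraries, and 501 in TDCIPP libraries and 393 in DMSO libraries. Their median DAC region was 3288 bp wide, against 1476 bp at members. In the TDCIPP table their median width was 2026 bp, against 1716 bp at members, so a larger width than other pairs is not particular to members. Pairs higher with both had a median level of 7.40 for TDCIPP and of 5.24 for DAC, and 8.99% of them lay on alternate scaffolds. Of the mirror pairs 57.7% (95% interval 46.0 to 68.8) had another of their kind within 50 kb, a larger share than the 28.6% of members, and of pairs higher with both 18.0% (12.6 to 24.4) had one. Among regions outside the pairs and within 5 kb of mirror pairs, the median was 0.36 with TDCIPP (18 regions, 0.16 to 0.41) and -0.38 with DAC (21 regions, -0.42 to -0.25). Near pairs higher with both it was 0.14 with TDCIPP (22 regions, -0.05 to 0.32, which takes in 0) and 0.25 with DAC (42 regions, 0.14 to 0.44). Nearby regions leaning the way of the chosen pairs were thus seen around the mirror pairs as well as around the members.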

How the data were processed

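The submitters' processing notes list the build GRCz11 and the tools DiffBind, deepTools, MACS2, Picard and Bowtie2, with no version, role or order. In the deposited tables, levels and folds are log2 values of mean normalized reads per consensus region, per the file headers, and each region has the authors' p-value and adjusted p-value. The sources used here do not give Tn5 shifting, handling of duplicates, library scaling or the engine behind the p-values. There are 0 columns of single libraries, so no count model was fitted, and the libraries' spread enters only through the authors' p-values. The labels do not say whether libraries came from separate clutches, so those p-values may measure technical spread. Summed over regions, normalized reads per library came to 7.75 M with TDCIPP against 7.91 M with DMSO, and to 2.07 M with DAC against 1.88 M with DMSO.

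Widths are end minus start plus 1, normalized reads are 2 to the power of the level, and a place joins members within 50 kb. Python 3.11.15, numpy 2.4.6, pandas 2.3.3 and scipy 1.17.1 were used. Pairing, the rule and the median interval were tested on simulated data that held no competing overlaps and no difference close to a limit. Clopper-Pearson intervals were not part of that test. Named are the 8 members with the widest separation, the 6 with the smallest TDCIPP p, the 4 with the smallest DAC p, the 4 widest, the 4 most read, those at the limits, and places of 4 or more. The members, this rule and the alternatives were chosen with earlier results of these data known, and the profile by distance after seeing the values. Genes, promoters, repeats and sequences were not analysed here, for want of a genome of this build.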

Additional observations from a re-analysis of the deposited data

How the results depend on the processing

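No paired analysis was possible because only group means were used, and leaving out replicates was not run for that reason. The count of 517 became 1549 at a limit of 0.2, 48 at 0.5, 131 with centred tables, 975 without a level minimum and 290 with minimums raised by 1, and it stayed within 1.5 times with 50% shared bases, on assembled chromosomes and without the places of 4 or more. The median width of 1716 bp became 1435 bp without a level minimum, 1886 bp with raised minimums and 1476 bp by the DAC table. The share with another member within 50 kb, 28.6%, became 36.2% at 0.2, 16.7% at 0.5, 21.5% at 10 kb and 22.3% without the places. The share on alternate scaffolds, 16.1%, became 29.0% when centred. The share passing with TDCIPP, 32.7%, became 13.7% at 0.2, 77.1% at 0.5, 50.4% centred, 19.2% without a level minimum, 43.5% with raised minimums and 28.0% without the places. Near regions within 5 kb had a TDCIPP median of -0.22, which became -0.14 at matched level and -0.17 within 10 kb, and a DAC median of 0.37, which became 0.24 within 10 kb. The cause of these shifts was not tested beyond what each setting removes. Without the places of 4 or more, 6.44% in place of 8.04% of pairs on alternate scaffolds were members, and on chromosome 5 the share was 4.6% in place of 6.5%. Of 55 alternatives, 32 left a count within 1.5 times, or a median or share within its 95% interval. Only the medians of near regions could turn a sign, and none of them did. The settings on places and near regions were chosen after seeing the data. The low reads of the DAC table limit what can be said of single regions.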

Other observations

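On the chromosome 17 scaffold KZ115525v1, 5 narrow regions of 587 to 600 bp followed each other at start-to-start steps of 4180 to 4184 bp, between 386487 and 403814. They were singled out after their values were seen. Of the 5, the first and second were members. Their reads were alike, from 338 to 375 in TDCIPP libraries and from 416 to 446 in DMSO libraries by the authors' deposited table, and all 5 were lower with TDCIPP, by differences of -0.34 to -0.20. With DAC, by the authors' deposited table, the regions at the same 5 positions differed from DMSO by 1.06, 0.91, 0.58, 0.25 and 0.12, in order along the scaffold. Reads were few, from 28.6 to 38.6 with DAC and from 17.8 to 26.5 with DMSO. The unadjusted DiffBind p were 0.0433, 0.0905, 0.449, 0.745 and 0.886. The rule required low TDCIPP and high DAC differences of the first 2, so nothing is read from their signs. A trend along the scaffold was not tested. None passed the TDCIPP adjusted p of the authors' DiffBind table (lowest 0.192). Whether the steps mark copies of a tandem repeat was not tested, since no sequence of this build was used here.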
